A study of Mus musculus with 6 samples.

Results

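The regions described here are 679 stretches of chromosomes 1 to 19 and X, in a region list from ChIP-seq of PHF13 in mouse testis. Each was centred on an LTR element whose family name was not among those left out for IAP, MERVL, ETn and MMERVK retroviruses. They were chosen by the repeat that the list names at the centre of each region: an element of class LTR whose family name does not start with IAP, does not contain ETn or MMERVK, and is neither MERVL-int nor MT2_Mm. The exclusion of ETn was read case-sensitively, so that 1 region at RLTRETN_Mm stayed in. Because the choice went by name, LTRs of the retroviruses left out may remain under other names. The 679 regions were 2.95% (Wilson 95% interval 2.74 to 3.17%) of the 23030 listed regions on these chromosomes, 17.1% of their 3966 LTR regions, and a part of the 39096 regions of the whole list. Such intervals cover counting error only.

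PHF13 (SPOC1) is a chromatin protein whose PHD finger recognises histone H3 methylated at its tail. The series has 3 SPOC1 ChIP and 3 input libraries of testis from C57Bl/6 mice aged 5 weeks. By the labels, 1 ChIP library is wild type and 2 are Phf13-/-, while 2 inputs are wild type and 1 is Phf13-/-. The ChIP and input libraries numbered 2 share an animal code but carry different genotype labels. The authors deposited 1 list for the series. Without values for single libraries there is no replicate error to set a difference against, and no test over samples could be made. The sources used here do not say which libraries entered the list, so the regions are not called PHF13 binding sites. All comparisons below describe this list, with no test, because regions are not replicates.

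LTR elements are remnants of retroviruses. A complete copy has an internal part with the viral genes (names ending in -int) between a pair of long terminal repeats, and recombination often leaves a single LTR behind. In mice they fall into ERV1, related to gammaretroviruses, ERVK, related to betaretroviruses, ERVL, and ERVL-MaLR, relatives of ERVL that lack viral genes of their own. Many are silenced by DNA methylation and H3K9 methylation, and the male germ line also represses them through piRNAs.

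No genome sequence of these elements was used here, but 4 of the 679 regions overlapped a RefSeq promoter window (250 bases before to 50 after a transcript start, build GRCm38.p6). All 4 windows belong to genes of long noncoding RNAs. The 3 windows with more than a few bases inside a region are printed 5′ to 3′ on the strand of the gene, with the bases inside the listed region in capitals. They are shown because they give the letters at an edge of a region centred on an ERVL internal part and of 2 regions on X centred on RLTR14-int. The list names the repeat at the centre of a region only, and in none of the 3 windows do the capitals reach that centre. The capitals thus need not lie within the element.
Gm12724: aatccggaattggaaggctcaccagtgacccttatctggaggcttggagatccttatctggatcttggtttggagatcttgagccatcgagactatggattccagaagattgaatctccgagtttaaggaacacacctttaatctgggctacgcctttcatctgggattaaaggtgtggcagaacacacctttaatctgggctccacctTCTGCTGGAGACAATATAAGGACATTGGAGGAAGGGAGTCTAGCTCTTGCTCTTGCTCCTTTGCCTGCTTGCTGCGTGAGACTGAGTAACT
Gm42218: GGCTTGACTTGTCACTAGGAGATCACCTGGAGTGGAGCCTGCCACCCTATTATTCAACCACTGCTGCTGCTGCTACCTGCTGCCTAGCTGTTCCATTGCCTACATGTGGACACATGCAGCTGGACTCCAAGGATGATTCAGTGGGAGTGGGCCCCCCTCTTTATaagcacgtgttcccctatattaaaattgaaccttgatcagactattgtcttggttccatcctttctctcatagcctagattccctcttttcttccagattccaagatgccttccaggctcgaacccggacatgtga
Gm42173: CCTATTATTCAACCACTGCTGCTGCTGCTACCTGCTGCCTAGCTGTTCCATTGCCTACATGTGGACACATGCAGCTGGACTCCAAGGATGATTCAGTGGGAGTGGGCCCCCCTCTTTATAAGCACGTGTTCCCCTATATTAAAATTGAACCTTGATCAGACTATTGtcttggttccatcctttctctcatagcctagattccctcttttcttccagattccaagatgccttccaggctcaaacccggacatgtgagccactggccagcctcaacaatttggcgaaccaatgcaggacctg
The Gm12724 window (chr4:106236872-106237171, + strand) shared 91 bases with a region at MERVL_2A-int (106237081 to 106237581). The Gm42218 window (chrX:25068237-25068536, + strand) shared 164 bases with a region at RLTR14-int (25067900 to 25068400). The Gm42173 window (chrX:27851462-27851761, - strand) shared 166 bases with another region at RLTR14-int (27851596 to 27852096). In a local alignment the 2 windows from X were identical at 254 of 255 aligned bases, with 0 gaps, although their genes lie on opposite strands of X and far apart. An exact stretch of 30 bases of the Gm42218 window occurred in 11 of the 32618 other windows (0.0337%), and all 11 were on X. For Gm12724 it was 24 other windows, 0 of them on X. Near-identical copies share reads, so which copy a region in such a family belongs to is uncertain. The 2 RLTR14-int regions had low levels, with scores of 6.58 and 5.1.

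The members were spread over 73 families, of which 26 had 1 region each. The 20 families with 10 or more regions held 554 of the 679. ERVK made up 403 regions in 42 families (59.4%, Wilson 55.6 to 63.0%). ERV1 had 132 in 10 families (19.4%, 16.6 to 22.6%), ERVL-MaLR 124 in 16 families (18.3%, 15.5 to 21.3%) and ERVL 20 in 5 families (2.95%, 1.91 to 4.51%). The families with the most regions were RLTR6-int with 87, ORR1A3-int with 60, RLTR13A with 58, RLTR13A2 with 45 and MTA_Mm-int with 34. Counted as loci, with regions of 1 superfamily less than 10 kb apart merged, ERVK gave 361, ERV1 121, ERVL-MaLR 123 and ERVL 16.

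**Figure D1:**
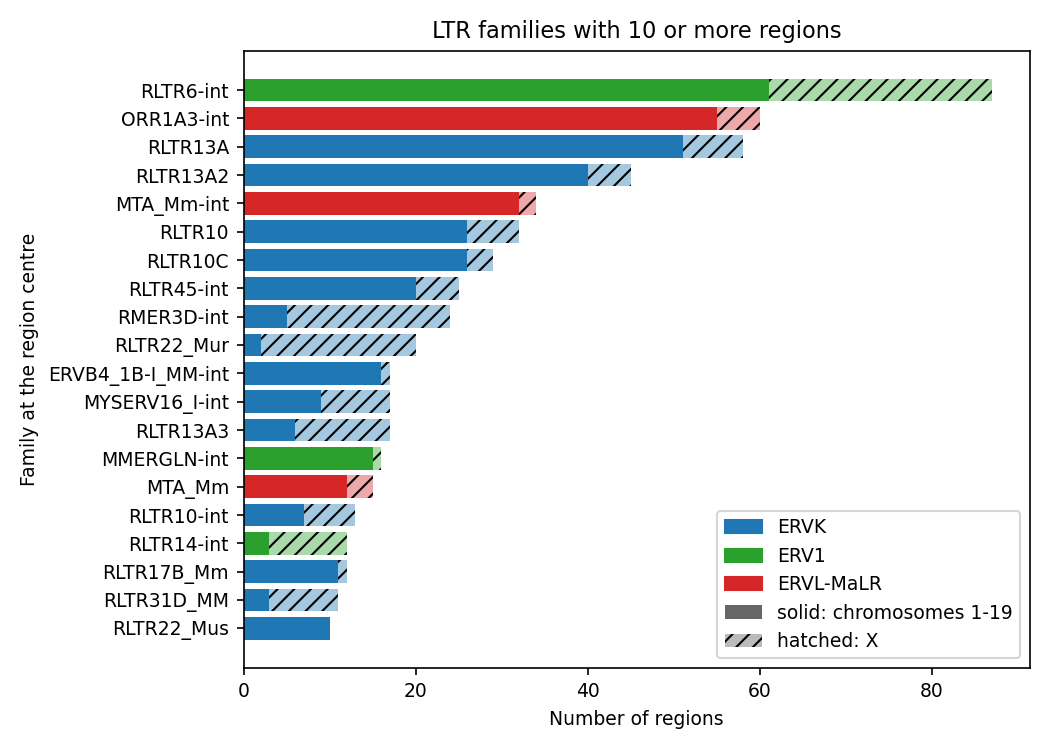
Number of regions on the x axis for each of the 20 LTR families with 10 or more members, coloured by superfamily. Solid bars count chromosomes 1 to 19 and hatched bars count X: RLTR6-int leads with 61 and 26, while RMER3D-int (5 and 19) and RLTR22_Mur (2 and 18) lie mostly on X.

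Internal parts and LTRs were found in different proportions in the 4 superfamilies. Over all members, 351 regions (51.7%, Wilson 47.9 to 55.4%) were centred on an internal part and 328 on an LTR. For ERV1 it was 129 of 132, for ERVL-MaLR 100 of 124, for ERVL 9 of 20 and for ERVK 113 of 403. Most ERVK members thus lay on an LTR (290 of 403), and so did 11 of the 20 ERVL members. The groups left out by name were mostly at internal parts. For IAP it was 1909 of 1917 regions, for ETn and MMERVK 469 of 469, and for MERVL-int with MT2_Mm 691 of 901. The proportions among members therefore depend on the choice of members.

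The authors' score per region has no stated unit and grows with length, so it was also divided by the region's length (score per kb). The members were short: 379 had exactly 500 bp, the most common length, and their median length was 500 bp (range 324 to 2549 bp). The median score was 10.8 (quartiles 7.43 and 15.4). Per kb of region it was 17.4 (quartiles 12.5 and 24.6). The same median was 28.3 in the 22351 other regions of these chromosomes, 29.1 in the 14538 at the young L1 families L1Md_T and L1Md_A and 32.2 in the 1917 at IAP elements. On the log2 scale the members lay 0.74 below young L1 and 0.88 below IAP. They stood above regions at simple repeats (12.7) and regions with no repeat named at the centre (12.4). Only 101 members (14.9%) had a score at or above 19.1, the median of all regions on these chromosomes, against 50.3% of all those regions. No member reached 77.1, the bound of the upper 10% by score that 10.1% of all regions passed, since the highest member had 72.8. By score per kb, 109 members (16.1%) were at or above the median of 28.0, against 50% of all regions, which the choice of the median sets.

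The 4 superfamilies had different median levels. The median score per kb was 28.8 for ERVL-MaLR (quartiles 24.7 and 31.5), 18.96 for ERV1 (15.3 and 21.8), 16.3 for ERVL (11.9 and 31.5) and 14.2 for ERVK (11.9 and 20.8). Without the 7 bins of 5 Mb that held 10 or more members, described below, the ERVL median was 33.1. That left only the 8 regions at MERVL_2A-int, at 4 loci, so it is the value of this family. The quartile ranges of ERVL-MaLR and ERVK did not overlap. Among families with 10 or more regions, the 3 highest medians were those of ORR1A3-int (31.0), MTA_Mm-int (26.2) and MTA_Mm (26.2), all of ERVL-MaLR. The 3 lowest were RLTR22_Mur (11.0), RMER3D-int (11.5) and RLTR31D_MM (11.6), all of ERVK and close to the median of regions with no repeat.

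**Figure D2:**
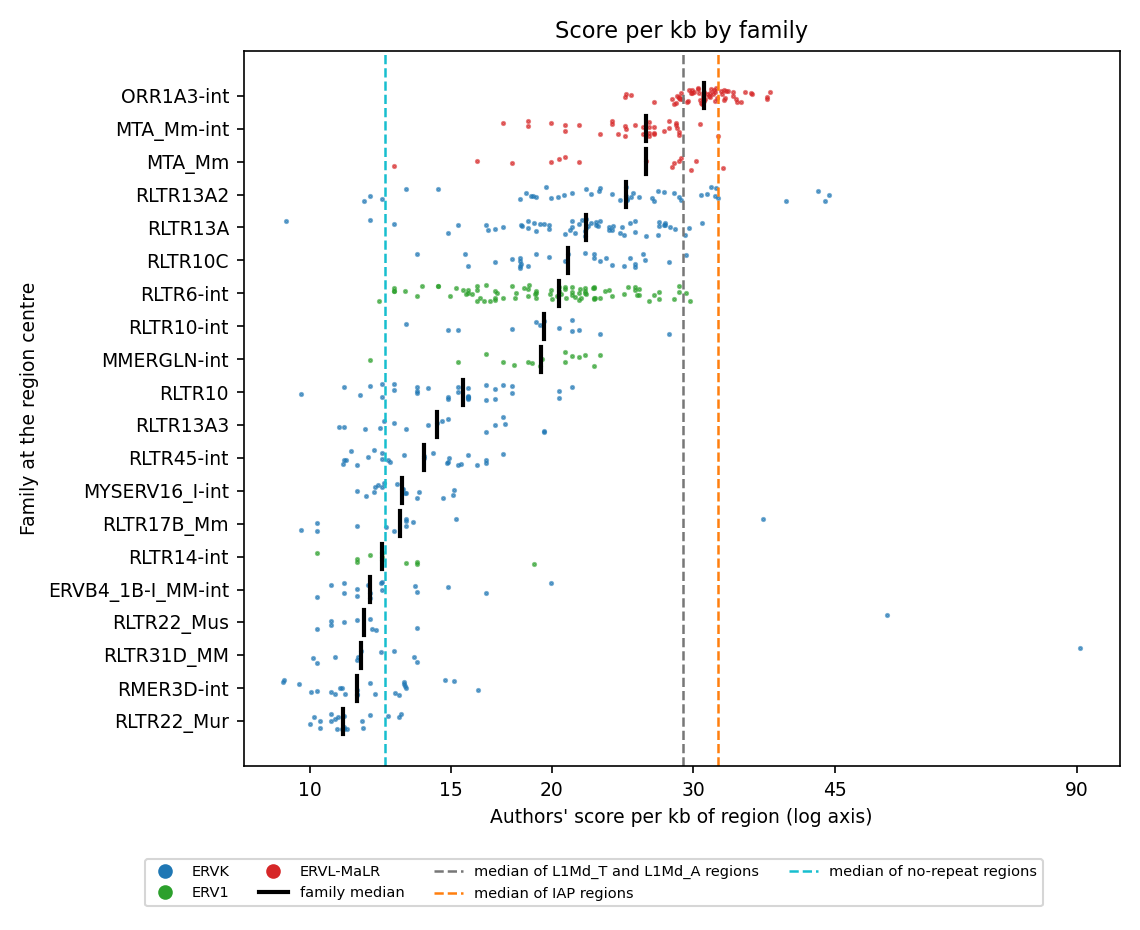
Authors' score per kb of region (log axis) for each member of the 20 families with 10 or more regions, 1 point a region, with the family median as a black bar. The median of ORR1A3-int (31.0) lies between the dashed medians of young L1 (29.1) and IAP regions (32.2), while the medians of 6 families, RLTR14-int the highest of them with 12.3, lie below that of regions with no repeat (12.4).

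The ERVL-MaLR regions, apart from 1 at MLT1A1, were those of the ORR1 and MT groups, which spread in rodents. The 69 ORR1 regions had a median score per kb of 30.9, and 60 of them were at ORR1A3-int. ORR1A3-int regions were also long for members, with a median of 855.5 bp, and 56 of the 60 were at or above the median score per kb of all regions. The region with the highest score of this superfamily was at ORR1A3-int on chromosome 4 (39647342 to 39648814, score 46.5), intergenic and 198 kb from the start of the nearest gene, 1700009N14Rik. Another at ORR1A3-int, on chromosome 16 (3769406 to 3770735), had a score of 41.0. By score per kb the highest ORR1A3-int regions were both on chromosome 5, in an intron at Phtf2 (20829019 to 20829844, 37.3) and near Zfp804b (7531055 to 7531691, 37.1).

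The other 9 ORR1 regions had either levels like those of ORR1A3-int or much lower ones. ORR1C2-int (33.6 per kb), ORR1E-int (31.8) and ORR1B1-int (31.3), with 1 region each on autosomes, were at the level of ORR1A3-int. The 2 at ORR1A2-int, both on X, had 16.3 and 14.4. The 4 at an ORR1 LTR had 15.4 (ORR1B1), 14.4 (ORR1D1), 11.0 (ORR1C2) and 10.2 (ORR1A4), all below every ORR1A3-int region. The MT group had 54 regions with a median of 25.7, of which 34 were at MTA_Mm-int and 15 at its LTR MTA_Mm. Those 2 had the same median of 26.2, while the 3 other ORR1 internal parts on autosomes lay above all 4 ORR1 LTRs. MTD, an older MT family, had 2 regions with a median of 11.3.

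Most ORR1A3-int regions lay beside a region of the MERVL retrovirus, which the choice of members had left out. Of the 60, 39 (65.0%, Wilson 52.4 to 75.8%) had a region at MERVL-int or MT2_Mm, the LTR of MERVL, within 10 kb, at a median gap of 2238 bp (range 534 to 5017 bp). Among the other 619 members it was 6 (0.969%). Among all 22069 listed regions outside ORR1A3-int and MERVL, those members included, it was 77 (0.349%). Seen from the other side, 58 of the 901 MERVL regions (6.44%) had an ORR1A3-int region within 10 kb. ORR1C2-int on chromosome 14 (60820558 to 60821183) and ORR1B1-int on chromosome 1 (188923509 to 188924420) also lay 1315 and 3387 bp from one. The level was much the same with and without this neighbour: the median score per kb was 30.8 at the 39 with a MERVL region within 10 kb and 31.5 at the 21 without. MTA_Mm and MTA_Mm-int had a MERVL region within 10 kb in 1 of 49 (2.04%, Wilson 0.361 to 10.7%). For that pair the other 630 members, ORR1A3-int among them, had one in 44 (6.98%). All 22080 listed regions outside these families and MERVL, those members included, had one in 115 (0.521%).

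ERVL, the superfamily of MERVL itself, was represented by few loci. MERVL_2A-int, an internal part related to MERVL, had 8 regions at 4 loci, with score per kb from 28.8 to 37.4 and a median of 33.1. On chromosome 17, 3 of them lay between 17276589 and 17282473 with 35.2, 37.4 and 31.3 per kb. The last of these (17280147 to 17282473) had the highest score of all members, 72.8. On chromosome 13, 3 lay between 18002582 and 18007523 with 32.2, 28.8 and 34.3 per kb. The remaining pair was on chromosome 1 (34.0) and chromosome 4 (29.4, the region beside Gm12724 printed above). All 8 lay above every region of the other ERVL families: MT2B had 5 regions with a median of 11.9, RMER10A 4 with 16.3, MT2C_Mm 2 with 11.3 and HERVL40-int 1 with 11.9. Of the 20 ERVL regions, 9 lay between 175 and 180 Mb of chromosome 2 and 3 between 25 and 35 Mb of X.

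Among ERV1, the VL30 group (RLTR6-int, MMVL30-int and RLTR6_Mm), defective retroviruses that rely on proteins of other viruses, held 92 of the 132 regions. Their score per kb had a median of 20.1 (quartiles 16.5 and 22.6), and 26 of the 92 lay on X. Some RLTR6-int regions lay near each other: 19 of the 87 had another within 10 kb, at a median gap of 4914 bp. An RLTR6-int region lay so close to 8 of the 592 other members (1.35%). Over all 22943 other listed regions, those members included, it was 33 (0.144%). The highest scores of RLTR6-int were 26.1 on chromosome 12 (68914370 to 68915639) and 21.9 on chromosome 15 (49169452 to 49170331). By score per kb they were on chromosome 13 (111736291 to 111736920, 29.7), chromosome 9 (11825411 to 11825911, 29.4) and chromosome 5 (143780842 to 143781491, 28.8).

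The GLN group (MMERGLN-int and MMERGLN_LTR) had 17 regions with a median of 19.4 per kb, and 16 of them were on autosomes. The group related to murine leukemia viruses (RLTR4_MM-int and MuRRS4-int) had 8 with a median of 14.01. It included the ERV1 region with the highest score, 52.2, at MuRRS4-int on X (33208058 to 33210607), which was also the longest member at 2549 bp. RLTR14-int had 12 regions with a median of 12.3, and 9 of them lay between 25 and 35 Mb of X. Of the 12, 6 had a region at MMERVK9C_I-int within 10 kb, against 9 of the 667 other members (1.35%). Over all 22994 listed regions outside both families, those members included, it was 35 (0.152%). MMVL30-int, RLTR4_MM-int and MuRRS4-int had 4 regions each.

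Among ERVK, families named RLTR13, an LTR group assembled here after the values were seen, had 134 regions with a median of 21.5 per kb. Of its families with 10 or more regions, RLTR13A2 had 24.8, RLTR13A 22.1 and RLTR13A3 14.4. The RLTR10 group had 74 regions with a median of 17.8: RLTR10C had 20.9, RLTR10-int 19.5 and RLTR10 15.5. Far below were the RMER families of ERVK with 53 regions (11.9), MYSERV with 18 (12.9), RLTR45-int with 25 (13.9) and ERVB4_1B-I_MM-int with 17 (11.9). Among the ERVK members, with internal parts named IAP, ETn and MMERVK left out, the LTRs had the higher median, 16.2 against 12.6 at internal parts.

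Some LTRs of the RLTR13 and RLTR10 groups, though not most of those counted, also lay beside internal parts of retroviruses that had been left out. Within 10 kb of an ETnERV3-int region were 19 of the 103 regions at RLTR13A or RLTR13A2 (18.4%, Wilson 12.1 to 27.0%), at a median gap of 1938 bp. That took in 16 of the 32 ETnERV3-int regions (50%), while among the other 576 members 4 had one so close (0.694%). Over all 22895 listed regions outside these families, those members included, it was 15 (0.0655%). For RLTR10C it was 9 of 29 within 10 kb of MMERVK10C-int (31.0%, Wilson 17.3 to 49.2%), against 0 of the other 650 members. Over all 22811 listed regions outside both families, those members included, it was 25 (0.11%). RLTR10 and RLTR10-int had an IAP region within 10 kb in 0 of 45. The other 634 members (1.10%) and all 21068 listed regions outside these families and IAP, those members included (1.07%), also seldom had one. RLTR13A and RLTR13A2 regions near ETnERV3-int had a median of 27.6 per kb, and the 84 others 22.3. For RLTR10C the values were 20.9 near and 21.4 elsewhere. These pairs of families were picked after the neighbours had been counted. The other pairs compared for gaps, such as ORR1A3-int with MERVL and RLTR14-int with MMERVK9C_I-int, had not been set in advance either.

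**Figure D3:**
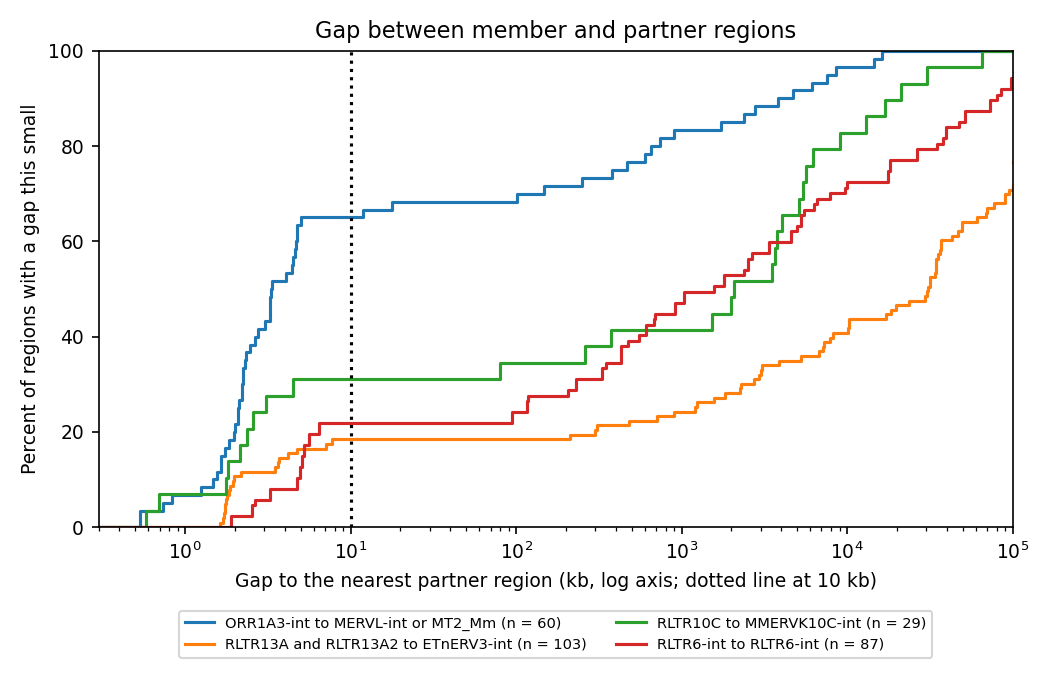
Percent of the regions of a family (y axis) whose gap to the nearest region of the partner family on the same chromosome is at most the value on the x axis (kb, log axis), for 4 pairs. The ORR1A3-int curve rises to 65.0% before the dotted line at 10 kb, RLTR10C to 31.0%, RLTR6-int to 21.8% and RLTR13A with RLTR13A2 to 18.4%.

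Any listed region within 10 kb, of whatever kind, was found for 331 of the 679 members (48.7%, Wilson 45.01 to 52.5%) and for 57.3% of the other regions (56.7 to 58.0%). The nearest such region was another member in 100 cases, a region with no repeat named in 47, a MERVL or MT2_Mm region in 44, young L1 in 43, ETn or MMERVK in 40, a LINE element other than young L1 in 37 and another kind in 20. For ERVL-MaLR 41 of 63 were MERVL or MT2_Mm.

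A few ERVK and ERVL-MaLR regions had levels far above most members. At MLT1A1, the only member shorter than 500 bp (324 bp, chromosome 5, 151734354 to 151734678) had a score of 45.9 and 142 per kb. It was the last listed region of chromosome 5. At RLTR31D_MM, a region on chromosome 18 (3004213 to 3004713) had 45.4 and 90.8 per kb, while its family had a median of 11.6; it was the first listed region of chromosome 18. At RLTR22_Mus, a region on chromosome 17 (19658538 to 19659038), 1611 bp from the transcription start site (TSS) of the vomeronasal receptor gene Vmn2r102, had 52.2 per kb against a family median of 11.7. The next was at RLTR13A2 in an intron (chromosome 5, 123545794 to 123546294, 44.2 per kb), with Diablo as the nearest gene. By score, RLTR13A2 regions on chromosome 14 (42645628 to 42646347, 30.8) and chromosome 7 (23117498 to 23119002, 30.6) followed RLTR31D_MM among ERVK.

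Along the genome the members were densest on X. X held 198 of them (29.2%, Wilson 25.9 to 32.7%), while it held 13.9% of all listed regions. A high share on X was not limited to the members. X also held 320 of 913 regions with no repeat and 626 of 2187 at LINE elements other than young L1. Lower shares were found for young L1 (1712 of 14538), IAP (128 of 1917), MERVL and MT2_Mm (48 of 901), ETn and MMERVK (54 of 469) and simple repeats (40 of 1195). The 19 autosomes carried a mean of 0.192 ± 0.073 members per Mb (SD, n = 19). Chromosome 15 was lowest with 0.0994 and chromosome 7 highest with 0.374. X had 1.19 per Mb, 6.18 times the autosomal mean, where all listed regions reached 2.37 times theirs. As a share of listed regions the members made up 6.17% on X and from 1.25% to 4.04% on the autosomes. Chromosomes 7 (53 members) and 2 (57 members) had the highest autosomal shares. Without 25 to 35 Mb of X the density on X was 3.16 times the autosomal mean, and among members with a score of at least 19.1 it was 2.95 times. No test was made of 1 chromosome against the others.

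**Figure D4:**
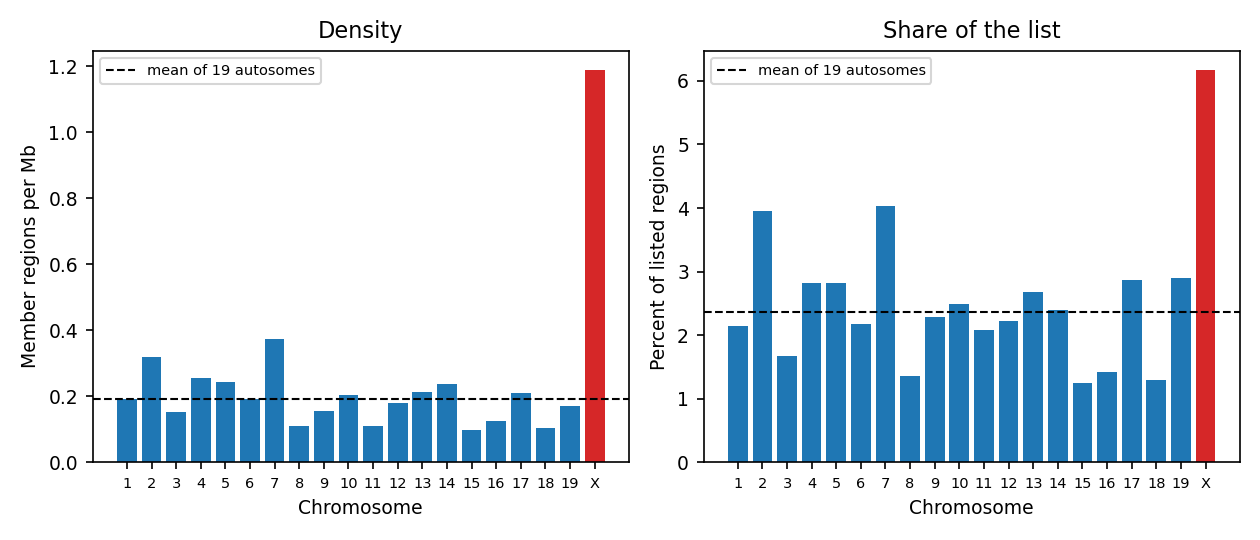
Member regions per Mb of chromosome span (left) and as a percent of all listed regions of the chromosome (right), for chromosomes 1 to 19 and X, with the mean of the 19 autosomes dashed. X, in red, stands above all autosomes in both, at 1.19 per Mb and 6.17%.

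The members gathered in a few stretches. Among bins of 5 Mb, 7 held 10 or more members and together 205 (30.2%) of them, against 5.76% of all listed regions. Picking bins by their count of members by itself raises the first share. Of these bins 4 were on X, and that from 25 to 30 Mb had the most members, 58. From 25 to 35 Mb of X, 103 of 702 listed regions were members (14.7%), while on the rest of X members made up 3.79%. The families there were RLTR22_Mur (16 of its 20 regions), RMER3D-int (16 of 24), RLTR6-int (12 of 87) and RLTR14-int (9 of 12). Their nearest genes were predicted genes such as Gm10486 (26 members on all of X), Gm10058 (24), Gm10096 (16), Gm10488 (15) and Gm10487 (6). For these 5 genes the closest member lay 40.9 kb from the TSS. Other members of this stretch were closer to a gene, such as RMER19C (33702682 to 33704399), 1191 bp from Gm2933.

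On chromosome 2, from 175 to 180 Mb, 35 of 126 listed regions (27.8%) were members, among them 12 of the 25 RLTR45-int regions, 8 at MYSERV16_I-int, 5 at MT2B and 4 at RMER10A. On chromosome 7, from 20 to 25 Mb, where vomeronasal receptor genes lie, 25 of 145 were members, led by RLTR22_Mus (9 of its 10), RLTR13A2 (6) and RLTR6-int (6). A bin on chromosome 5, from 90 to 95 Mb, had 11.

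Members in these bins had lower levels for their length. Their median score per kb was 12.3 inside the 7 bins and 20.9 in the 474 members outside. From 25 to 35 Mb of X it was 11.9 for members and 12.6 for the 599 other listed regions, so the low level there was not limited to the members. Over X as a whole members had 12.4 and on autosomes 20.8. The families on X differed from those on autosomes, since ERVK made up 71.7% of the members on X and 54.3% of those on autosomes, and ERVL-MaLR 7.07% and 22.9%. Within families, all 10 with 5 or more regions on each side had a lower median on X. The log2 differences (X minus autosomes) ran from -1.01 to -0.02. Regions are not replicates, so this count only describes the list. RLTR6-int had 16.4 on X (n = 26) and 21.2 on autosomes (n = 61), ORR1A3-int 25.1 (n = 5) and 31.4 (n = 55), and RLTR13A 18.3 (n = 7) and 22.7 (n = 51). For young L1 the medians were 27.5 and 29.3. In log2 units that is -0.10 for young L1, against a median of -0.32 over the 10 families. All listed regions, of mixed kinds, had medians of 22.6 on X and 28.7 on autosomes. A lower median on X was thus not limited to the members. The parts of location and of family make-up in these lower values were not tested.

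Most members lay between genes. By the authors' annotation 586 (86.3%, Wilson 83.5 to 88.7%) were intergenic and 93 intronic. The list names a repeat only for regions of these 2 classes, so a member could not fall in an exon, a promoter or another class. Intergenic were 78.3% of the other regions (77.8 to 78.8%). ERV1 was the most intergenic (93.2%, Wilson 87.5 to 96.4%) and ERVL-MaLR had 25.8% in introns (18.9 to 34.2%). On X 197 of 198 members were intergenic, against 84.7% of all listed regions there. On autosomes it was 80.9% of members and 77.5% of all listed regions. By the distances in the list, members had a gene start within 10 kb more often than its other regions. For 82 (12.1%, Wilson 9.84 to 14.7%) a TSS lay that close, against 6.59% of the other regions (6.28 to 6.93%), 9.13% of IAP and 4.44% of young L1 regions. By superfamily it was 56 of 403 for ERVK, 10 of 132 for ERV1, 11 of 124 for ERVL-MaLR and 5 of 20 for ERVL.

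By the distances in the list, 1 member lay within 1 kb of a TSS, where a region annotated as promoter names no repeat. It was at RLTR13A2 in an intron, 861 bp from the start of the pseudogene Speer8-ps1 (chromosome 5, 14945841 to 14946470, score 15.9). The 4 regions that overlapped a RefSeq promoter window were not counted by these distances. For the Gm12724 region, for example, the list names Usp24 as the nearest gene. By the same distances 9 more members lay within 2 kb. They included RLTR6-int 1276 bp from Mbd1, which encodes a protein that binds methylated DNA (chromosome 18, 74266626 to 74267399, score 16.8). MMERGLN_LTR lay 1360 bp from Ulbp1, a ligand gene of natural killer cell receptors (chromosome 10, 7474511 to 7475164, 10.4). ORR1A3-int lay 1792 bp from the transporter gene Slc10a6 (chromosome 5, 103630659 to 103631732, 32.1). Apart from Speer8-ps1, these genes were chosen after their values were seen.

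Most host genes of intronic members held 1 member. Of the 93 intronic regions, 91 could be matched to a RefSeq gene by transcript, giving 79 host genes. Gm14308 on chromosome 2 had 5 members (4 at RMER10A and 1 at MTA_Mm), and Gm14391 on the same chromosome had 3 (MT2B, MYSERV16_I-int and RLTR45-int). Another 6 genes had 2 each, among them Farp1 with 2 at RLTR10 and Nlrp4e with 2 at RLTR13A. Next to Gm10486 and the other genes of X named above, the genes most often nearest to a member were Gm14432 on chromosome 2 (7) and Gm10922, Gm16405, Gm3706 and Gm4836 on X (5 each). In all, 35.3% of the members had a predicted gene as the nearest, against 11.4% of the other regions, and 4.57% had a vomeronasal receptor gene, against 1.93%. Olfactory receptor genes (1.47% against 1.92%) and genes of zinc finger proteins (0.884% against 1.17%) were nearest slightly less often to members in this list.

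A member in an intron or within 10 kb of the TSS was found for 125 of 49997 RefSeq gene names (0.25%). At that share lists of about 20 genes would rarely hold one, and none did among 23 genes of meiotic prophase (such as Sycp1 and Spo11), 18 of spermiogenesis (Prm1, Tnp1), 17 of the piRNA pathway (Piwil1, Mael) and 19 repressors of LTR elements (Trim28, Setdb1, of which 18 names were in the reference). Other listed regions lay so at 3, 2, 2 and 2 of them in the same order, among them Sycp1, Pgk2, Asz1 and Morc1, and at 5.16% of all gene names.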

How the data were processed

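ChIP-seq of PHF13 (SPOC1) and input from mouse testis was deposited as 1 list of regions. Per the file headers, the authors' list was annotated by HOMER against mm10; the submitters' processing notes name Bowtie2 2.2.2, SAMtools and HOMER 4.6 without roles. Peak settings, pooling and depth per library are not stated in any source used. The deposited score per region has no stated unit. Positions, lengths and TSS distances are those of the deposited list; score was divided by length here. Families come from the repeat at the centre of a region. The labels' groups (3 ChIP, 3 input) were not compared, because 0 columns hold values per library.

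Members and lists were chosen with earlier results of these data known. Named were the 5 largest families per superfamily, families of 50 or more, the 3 highest and lowest medians among families of 10 or more, fixed family groups, the 3 top regions per superfamily by score and by score per kb, host genes with 3 or more members, genes within 1 kb and the 10 genes most often nearest. Gaps run between region edges. RefSeq tables (GRCm38.p6, the assembly named mm10) gave host genes and promoter windows. Functions were tested on simulated data. Shares have Wilson 95% intervals and medians binomial order-statistic intervals, which serve only to judge the alternatives. Alternatives were score filters, length, loci, windows, chromosomes and spans. Tools were Biopython 1.88, matplotlib 3.10.9, SciPy 1.17.1, NumPy 2.4.6 and pandas 2.3.3 under Python 3.11.15.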

Additional observations from a re-analysis of the deposited data

How the results depend on the processing

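Of 89 alternative values, 44 stayed within the interval of the value given (counts within 1.5 times) and 45 moved. Only the log2 differences could change sign, and they did not. The 2 alternatives, leaving out 7 bins of 5 Mb and leaving out 25 to 35 Mb of X, were chosen after seeing the data. Among the upper 50% by score there were 101 members (0.872% of regions), with ERVK at 40.6%, ERV1 at 4.95% and ERVL-MaLR at 51.5%; X had 2.95 times the autosomal density, 81.2% were intergenic and 57.4% internal parts. The upper 10% held 0 members, a share of 0%, so no superfamily shares could be had. Without regions of 500 bp there were 300 members (2.07%), with ERV1 at 15.7%, ERVL-MaLR at 22.3% and ERVL at 1.33%. Their median score per kb was 19.9, with 30.7 for ERVL-MaLR and 31.8 for ERVL, and the log2 differences were -0.59 from young L1 and -0.73 from IAP. Loci of 10 and 5 kb made up 3.82% and 3.82% of loci. With Y and unplaced contigs, ERVK was 34.1%, ERV1 26.2%, ERVL-MaLR 34.4% and ERVL 5.21%. The score as deposited, another quantity, had medians of 10.8 for members, 9.34 for ERVK, 10.6 for ERV1, 16.8 for ERVL-MaLR and 8.39 for ERVL, and log2 differences of -1.08 from young L1 and -1.10 from IAP. On autosomes only, the medians per kb were 20.8 for members and 17.4 for ERVK, and the differences -0.50 and -0.63. Without the 7 bins they were 20.9 for members, 17.8 for ERVK and 33.1 for ERVL, of which only the 8 MERVL_2A-int regions remained. Without 25 to 35 Mb, X had 3.16 times the autosomal density. A TSS lay within 5 kb of 3.39% and within 50 kb of 45.5%, and another region within 5 kb of 35.3% and within 50 kb of 77.2%, by construction. For all other shifts the cause was not tested. Leaving out a replicate could not be run. No paired analysis was possible because single libraries have no values in the deposited list. The depth behind a region is unknown, so weak and absent signal cannot be told apart.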

Other observations

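Outside the chromosomes studied, listed regions that fitted the same family rule were most numerous on Y. There were 2105 on Y, against 679 on chromosomes 1 to 19 and X, and 39 lay on unplaced contigs. How common the elements are in the genome was not counted. With Y and unplaced contigs added, ERVL-MaLR rose from 18.3% to 34.4% of regions and ERVK fell from 59.4% to 34.1%. The make-up outside the chromosomes studied thus differed from that of the 679. The regions on Y covered 3848 kb, against 447 kb for the 679. Their median score was 11.5 and their median score per kb 12.3 (quartiles of the score 6.8 and 28.9), close to the 11.9 per kb of the members from 25 to 35 Mb of X.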
